A study of Mus musculus with 12 samples.

Results

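The response of A2BAR knockout hearts to ischemic preconditioning (IP) is described here across all genes measured on 6 arrays of a series of 12. The 3 arrays of A2BAR -/- heart labelled IP120 were set against the 3 arrays of A2BAR -/- heart labelled control, and 14044 genes were tested. All mice were 12-week-old males on a BL6/C57 background, and the knockout lacked A2BAR, the adenosine A2B receptor encoded by Adora2b. In the IP groups the coronary flow was stopped and restored for 5 min each in 4 rounds, the heart was then reperfused for 2 h, and RNA was taken from the area at risk of the left ventricle. The control hearts are called untreated in one label text and sham operated in another, and the wild-type mice are described both as purchased and as littermates. The remaining 6 arrays, 3 of wild-type IP hearts and 3 of wild-type control hearts, entered the same fit and are used here to test the difference between the genotypes. Nothing in the labels ties each array to its own mouse, so the spread behind each p-value is that between these arrays and may be technical, and with 3 arrays a group their number limits the precision. The knockout mice were bred in house, per the labels.

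Ischemic preconditioning is the protection that short, sublethal periods of ischemia give the heart against a later long one. Ischemic cells release ATP, which the surface enzymes CD39 (Entpd1) and CD73 (Nt5e) turn into adenosine, and adenosine acts on a family of receptors. The A2B receptor couples to the stimulatory G protein, raises cAMP and is known in heart and vessels for limiting inflammation and ischemic injury.

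Median array signals lay between 71.2 and 73.6 in knockout IP hearts and between 71.7 and 72.3 in knockout control hearts. The ratio of the 3' to the 5' beta-actin probe sets, which moves with RNA degradation and with the labelling reaction, was 1.79 to 1.93 in knockout IP hearts and 1.85 to 2.64 in knockout control hearts, with the highest value on control array 3. The Adora2b probe set read 52.3, 61.5 and 47.7 in knockout IP hearts, 18.6, 52 and 62.6 in knockout control hearts, 207, 165 and 156 in wild-type IP hearts and 42.1, 71.1 and 72 in wild-type control hearts. The sources used here do not place its probes relative to the deleted sequence, so this reading does not check the genotype. The 16 cardiomyocyte markers summed to 614018 to 651544 signal units in knockout IP hearts and to 615955 to 667531 in knockout control hearts, while the atrial markers Myl7 and Sln lay below the filter on low signals.

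In knockout hearts 677 genes were higher and 1028 lower after IP than in control hearts (limma, adjusted p below 0.05), which is 4.82% and 7.32% of the genes tested. The higher genes had a median log2 change of 1.02 and the lower genes one of -0.63. At least 2-fold changes were seen in 345 of the higher genes (2.46% of all) and in 166 of the lower genes (1.18%), and at least 8-fold ones in 35 higher genes. All 3 IP arrays lay on one side of all 3 control arrays for 1694 of the 1705 genes that passed, and for 32.2% of all genes tested (9.71% higher and 22.4% lower). The median log2 change over all genes was -0.08. The excess of lower genes shrank or was gone when single arrays were left out: 448 were higher and 500 lower without IP array 3 (948 in all), and 557 higher and 540 lower without control array 3 (1097). With the beta-actin ratio as a covariate 563 were higher and 525 lower (1088).

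**Figure D1:**
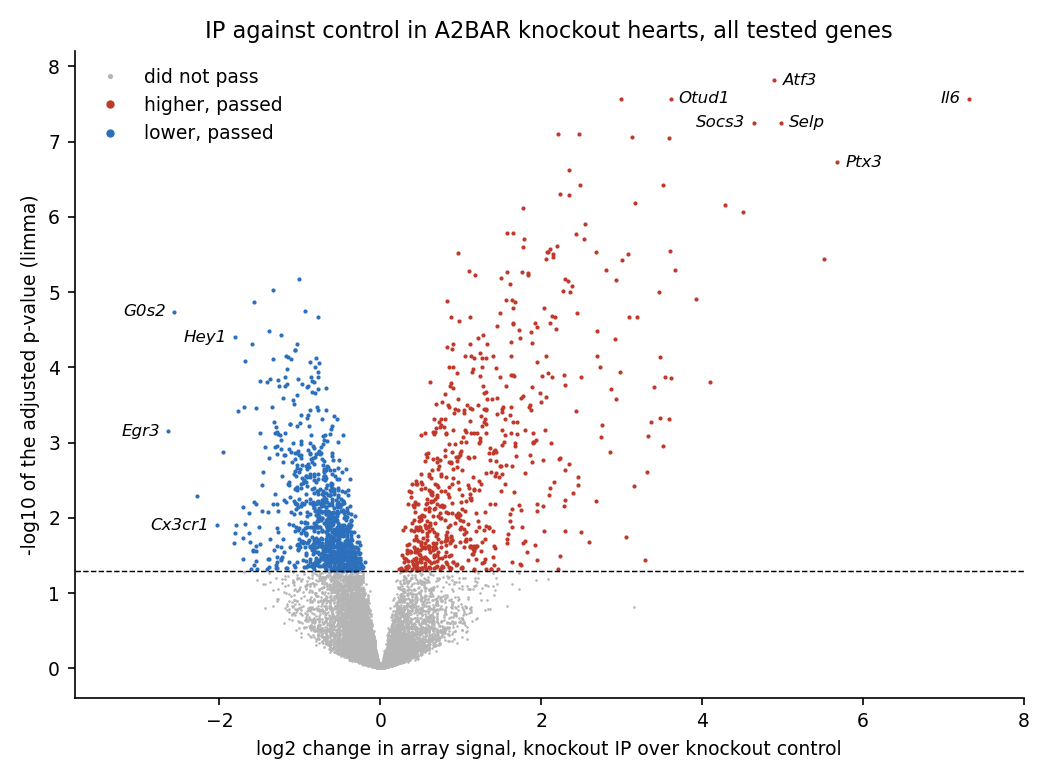
Each point is 1 of 14044 genes in A2BAR knockout hearts, with the log2 change in array signal of IP over control on the x axis and -log10 of limma's adjusted p on the y axis; red and blue points passed (above the dashed line at 0.05) and grey points did not. The 677 higher genes reach a log2 change of 7.32 (Il6), and the 1028 lower genes lie within 2.64 of 0 (Egr3).

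The gene that rose most was Il6, and the 15 largest rises included chemokines, selectins, a transcription factor and several enzymes. Il6, the ligand of the interleukin 6 family, read 8821, 12648 and 13947 in knockout IP hearts and 47, 21.5 and 146 in knockout control hearts. The groups lay far apart, and the log2 change was 7.32 ± 0.38 (SE; adjusted p = 2.7e-08). Cxcl2, a chemokine that attracts neutrophils, read 5149, 7831 and 7725 in knockout IP hearts and 119, 52.1 and 339.5 in knockout control hearts (log2 change 5.52 ± 0.48). Its highest control array was control array 3, still more than an order of magnitude below the IP arrays. Selp, which encodes P-selectin, read 1236, 1226 and 1098 in knockout IP hearts and 23.2, 33.9 and 12.3 in knockout control hearts (4.98 ± 0.28). The stress transcription factor Atf3 gave 8676, 8573 and 11923 in knockout IP hearts against 428, 194 and 345 in knockout control hearts (4.90 ± 0.22). Csf3, the granulocyte growth factor, stood at 390.0, 566 and 399.6 in knockout IP hearts and at 8.45, 6.76 and 8.3 in knockout control hearts. Whether such low control signals lie above background was not tested. Fold changes are ratios of signals plus 16, which for dim genes are smaller than ratios of the signals alone. The authors' deposited table gave a smaller log2 difference for Csf3 (3.09, against 4.28 here) and a larger one for Cxcl5 (5.21, against 4.51). The other genes among the 15 largest rises were Ptx3 (5.68), a secreted pattern recognition protein; Socs3 (4.64), the feedback inhibitor of interleukin 6 signalling; the chemokines Cxcl5 (4.51), Cxcl1 (3.92) and Ccl3 (3.59); Angptl4 (4.10), an inhibitor of lipoprotein lipase; Sele (3.67), E-selectin; Hdc (3.61), the enzyme that makes histamine; Otud1 (3.61), a deubiquitinase; and Sphk1 (3.60), which makes sphingosine-1-phosphate.

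**Figure D2:**
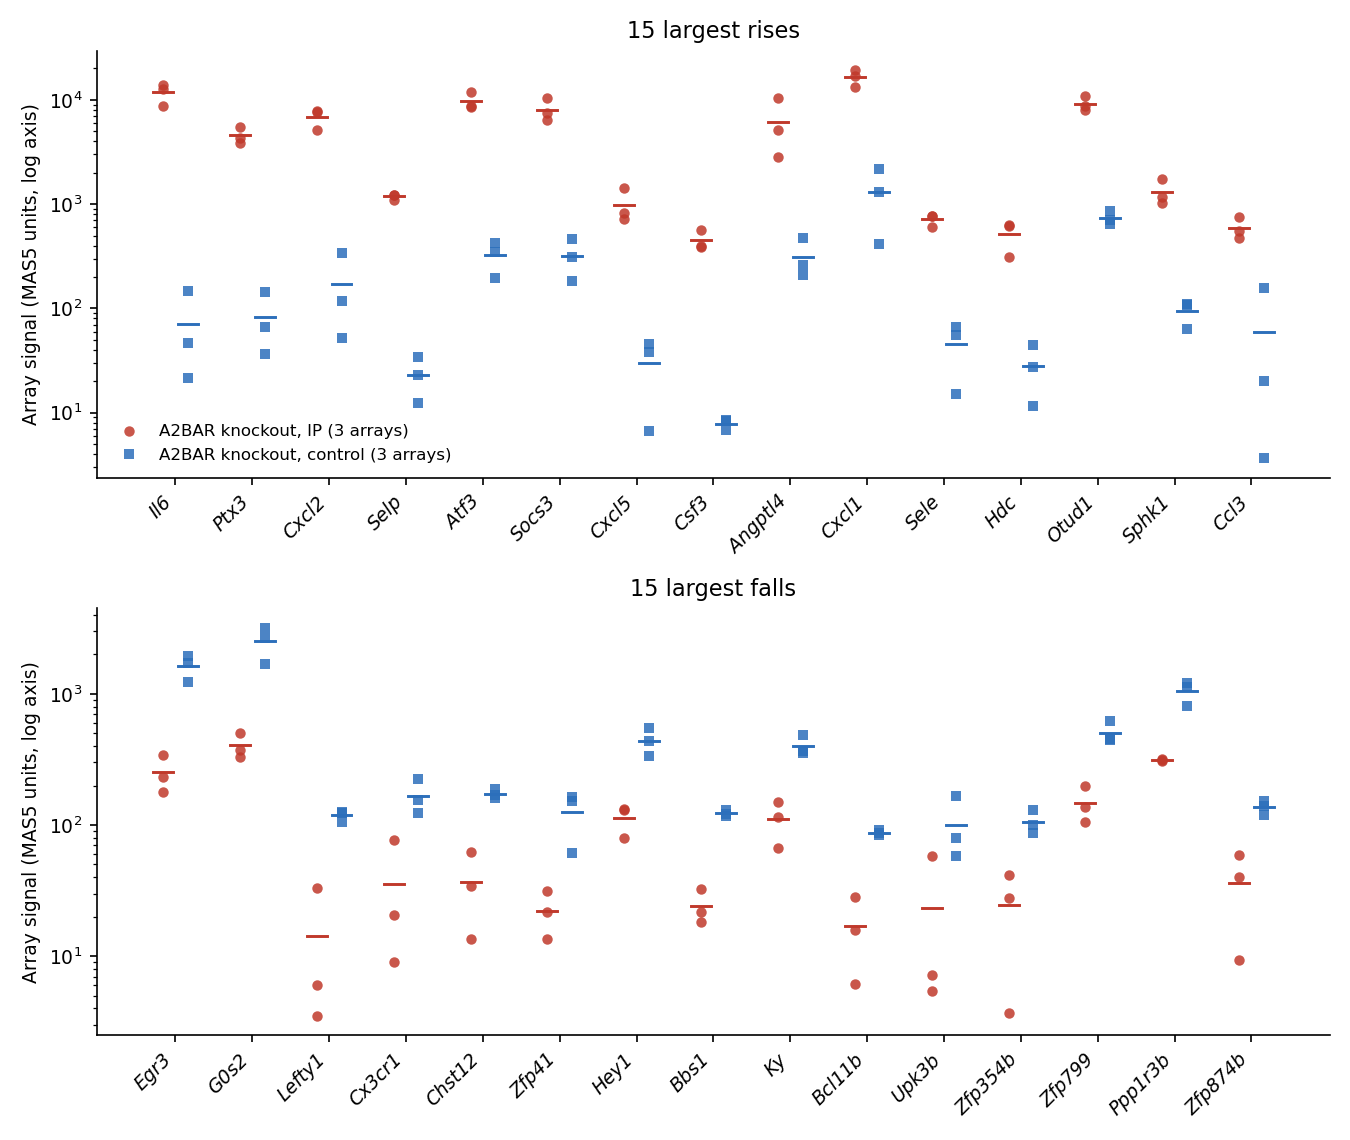
Array signals (MAS5 units, log axis) of the 15 genes that rose most and the 15 that fell most, taken from those that passed with no overlap of the arrays, with 1 point per array and a bar at the mean; knockout IP is left of knockout control for each gene. For Il6 the knockout IP arrays read 8821 to 13947 and the knockout control arrays 21.5 to 146, while for Lefty1 the knockout IP arrays read 3.5 to 33 and the knockout control arrays 106 to 125.

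The bases just upstream of 4 of these genes are shown because they hold matches to the binding motifs of factors known to act downstream of cytokine and stress signals. The windows are the 250 bases before the annotated start, from RefSeq on GRCm38.p6, written 5' to 3' on the strand of the gene, with matches to kappa B, AP-1 and STAT motifs in capitals and those to other motifs left in lower case. In the windows of Il6 (chr5:30012864-30013113, plus strand) and Cxcl2 (chr5:90903649-90903898, plus strand) the capitals mark a kappa B match, 44 bases (Il6) and 97 bases (Cxcl2) before the start, and in Il6 also an AP-1 match 249 bases before it. In Sele (chr1:164047984-164048233, plus strand) they mark a STAT match at 140 bases and an AP-1 match at 73 bases, and in Socs3 (chr11:117969367-117969616, minus strand) a STAT match at 154 bases. Sele also has a TATA match at 49 bases, in lower case.
Il6: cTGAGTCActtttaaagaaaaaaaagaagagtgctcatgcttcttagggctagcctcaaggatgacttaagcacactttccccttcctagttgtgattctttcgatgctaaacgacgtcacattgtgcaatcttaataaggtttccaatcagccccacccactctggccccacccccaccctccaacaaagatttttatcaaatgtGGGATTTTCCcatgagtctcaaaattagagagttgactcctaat
Cxcl2: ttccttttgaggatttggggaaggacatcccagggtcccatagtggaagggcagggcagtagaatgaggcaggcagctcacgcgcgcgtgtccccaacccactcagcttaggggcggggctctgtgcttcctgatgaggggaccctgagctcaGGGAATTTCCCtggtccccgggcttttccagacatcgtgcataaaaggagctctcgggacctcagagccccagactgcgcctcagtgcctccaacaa
Sele: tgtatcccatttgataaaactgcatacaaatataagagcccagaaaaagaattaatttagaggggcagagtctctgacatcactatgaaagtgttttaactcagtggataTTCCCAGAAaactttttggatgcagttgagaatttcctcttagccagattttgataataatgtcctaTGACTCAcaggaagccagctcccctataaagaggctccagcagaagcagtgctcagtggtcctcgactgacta
Socs3: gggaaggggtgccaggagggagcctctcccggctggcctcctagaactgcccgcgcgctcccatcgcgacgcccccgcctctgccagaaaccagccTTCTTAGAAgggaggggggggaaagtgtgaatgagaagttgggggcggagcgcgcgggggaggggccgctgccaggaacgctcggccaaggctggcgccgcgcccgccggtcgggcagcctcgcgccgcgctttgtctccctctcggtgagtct
The letters searched on both strands were TGANTCA for AP-1 and TTCNNNGAA for STAT, with kappa B searched by its usual consensus; the TATA box was searched as TATAAA, the E-box as CACGTG and the cAMP response element (CRE) as TGACGTCA. In Cxcl2 the capitals cover overlapping kappa B matches at 97 and 96 bases. Of 255 genes with at least a 2-fold rise and a window, 12.5% held a kappa B match, 13.3% an AP-1 match and 14.5% a STAT match. Among the 131 such genes with at least a 2-fold fall these shares were 6.87%, 4.58% and 5.34%, and among all 10241 tested genes with a window they were 5.54%, 5.79% and 7.18%. The TATA share was 16.1% of the genes that rose, 7.63% of those that fell and 8.51% of all. The E-box share was 12.5%, 6.87% and 9.86% in that order, and the CRE share 3.92%, 2.29% and 2.93%. A match describes these letters and is not evidence of binding.

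Neutrophil markers had the highest median of the 11 cell type lists. Of 12 tested markers 9 rose and 0 fell, beside 4.82% and 7.32% of all genes called higher and lower. Their median log2 change was 2.82. Their summed signal was 10975 to 21607 in knockout IP hearts and 1902 to 2985 in knockout control hearts. Among them S100a9, a calcium-binding alarmin subunit, read 8139, 3705 and 7553 in knockout IP hearts and 452, 990.0 and 840.0 in knockout control hearts. IP array 2 was the lowest of the IP arrays for S100a9, for the summed list and for each marker named here. Clec4d (3.37 ± 0.51), Clec4e (3.48 ± 0.52), Mmp8 (3.51 ± 0.58), Il1r2 (3.40 ± 0.46) and Lcn2 (3.09 ± 0.33) also rose, while S100a9, chosen after its values were seen, lost its call without IP array 1, IP array 3 or control array 1. No neutrophil marker was at 0 on a knockout array. In tissue RNA, more cells of a type and more RNA per cell cannot be told apart. Without IP array 3 the count of higher markers was 6.

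Markers of the other cell types moved less. Their counts stand beside 4.82% of all genes called higher and 7.32% called lower. Of 16 cardiomyocyte markers 0 passed, with log2 changes from -0.26 to 0.11 and a median of -0.03. Of 15 macrophage markers 2 rose (Cd14 and the mannose receptor Mrc1) and 2 fell (Maf and the chemokine receptor Cx3cr1), and the summed macrophage signal was 17144 to 20218 in knockout IP hearts and 15409.7 to 17504 in knockout control hearts. Cx3cr1 read 9.06, 76.5 and 20.7 in knockout IP hearts and 223, 124 and 156 in knockout control hearts (-2.03 ± 0.48); it lost its call without IP array 1, IP array 3 or control array 1. Of 16 endothelial markers 1 rose and 5 fell, a count of falls that was 1 without IP array 3. Egfl7, a secreted endothelial factor (714, 771 and 883 in knockout IP hearts, 1569, 1845 and 1397 in knockout control hearts), and Esam (0.51 ± 0.10), a junction protein, kept their call whichever knockout array was left out. The endothelial sum was 56181 to 58482 in knockout IP hearts and 55839 to 59774 in knockout control hearts. None of 6 lymphocyte markers and none of 3 erythroid markers passed. Of 11 fibroblast markers 1 rose (Postn), of 10 mural cell markers 3 fell, of 3 adipocyte markers 1 rose (Lipe), of 3 atrial markers 1 fell (Nr2f2) and of 4 mesothelial markers 1 rose (Wt1) and 1 fell (Upk3b). All of these calls were lost when 1 of several arrays was left out, IP array 1 or IP array 3 among them.

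**Figure D3:**
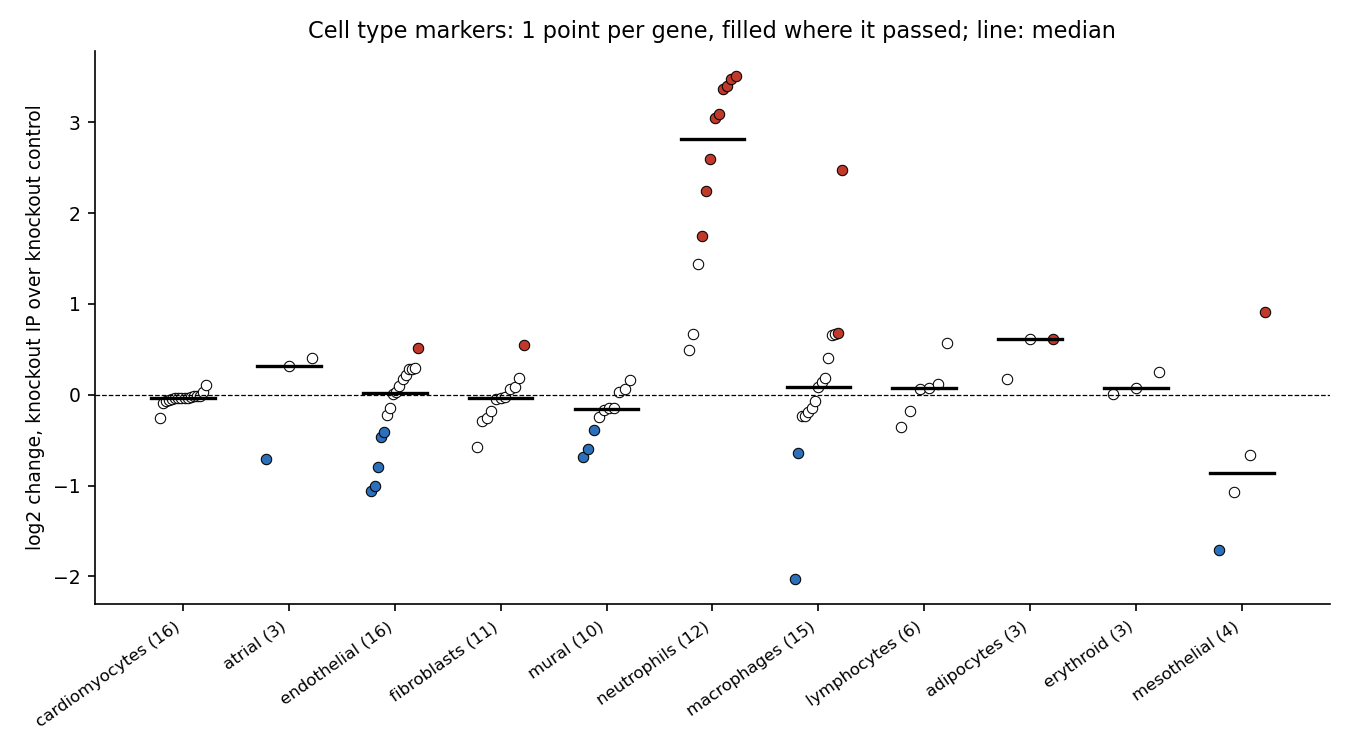
The log2 change of IP over control in A2BAR knockout hearts is plotted for each tested marker of 11 cell types (number tested in parentheses), with filled points for genes that passed and a line at the list's median. The 12 neutrophil markers have a median of 2.82 and the 16 cardiomyocyte markers one of -0.03.

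The counts of 4 cytokine and chemokine lists follow, beside 4.82% and 7.32% of all genes called higher and lower. The neutrophil marker sums given above moved with them, and their part in these results was not tested. Among the interleukin 6 family, its receptors and STAT3 feedback genes 8 of 18 rose and 1 fell (median 0.82). Osmr, the oncostatin M receptor, read 3174, 1927 and 3334 in knockout IP hearts against 742, 611 and 583 in knockout control hearts. Stat3, which carries the signal to the nucleus, rose by 1.11 ± 0.12, and its target kinase Pim1 by 1.84 ± 0.17. Cish, a cytokine-inducible inhibitor, fell by 0.74 on the log2 scale. Of 14 neutrophil chemokines and granulocyte growth factors 9 rose and 0 fell (median 1.62), among them Csf2 (2.98 ± 0.38). In the list of CC chemokines and their receptors 8 of 18 rose and 1 fell (median 1.11). That fall was Cx3cr1, a CX3C chemokine receptor kept in the list. Ccl2, which attracts monocytes, read 2683, 2982 and 4306 in knockout IP hearts against 214, 393 and 602 in knockout control hearts (3.08 ± 0.26). Ccl4 (1.95), Ccl7 (1.85), Ccl19 (1.39) and the receptor Ccr1 (2.09) rose too. The interleukin 1 and TNF list had 9 of 15 higher and 0 lower (median 1.52). Its inhibitory members were among them: Il1rn, the interleukin 1 receptor antagonist, read 436, 265 and 381 in knockout IP hearts and 3.17, 37 and 20 in knockout control hearts, and Il1r2, the decoy receptor, has its value above. The signalling receptor Il1r1 (2.15 ± 0.19) and the alarmin Il33 (1.86 ± 0.27) also rose. The single fall in the CC chemokine list rests on Cx3cr1, whose call depended on the arrays named above.

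Adhesion molecules, NF-kB feedback genes and pattern recognition receptors followed, beside 4.82% and 7.32% of all genes called higher and lower. Of 14 selectins and leukocyte adhesion molecules 5 rose and 1 fell (median 0.81). Icam1, which holds leukocytes to endothelium, read 7942, 5124 and 3494 in knockout IP hearts and 485, 366 and 553 in knockout control hearts, with no overlap (3.46 ± 0.34). Vcam1 (1.70 ± 0.27) and the hyaluronan receptor Cd44 (1.13 ± 0.18) rose as well. Among NF-kB subunits, kinases and feedback inhibitors 14 of 21 rose and 1 fell (median 0.88). Tnfaip3, the deubiquitinase A20, read 1767, 2129 and 1515 in knockout IP hearts and 278, 275 and 422 in knockout control hearts (2.43 ± 0.19). The atypical inhibitors Bcl3 (3.19 ± 0.34) and Nfkbiz (2.34 ± 0.15) and the ubiquitin ligase Birc3 (2.23 ± 0.16) rose in the same comparison. For Birc3 the other kept probe set gave 0.22. Of 19 Toll-like receptor and pattern recognition genes 7 rose and 0 fell (median 0.45). Cd14, the co-receptor for bacterial lipopolysaccharide, read 3419, 2751 and 3608 in knockout IP hearts and 673, 516 and 538 in knockout control hearts. Tlr2 (1.49 ± 0.19), the adaptor Myd88 (1.22 ± 0.14) and the inhibitory kinase Irak3 (1.80 ± 0.28) were higher. The interferon response had 3 of 18 higher and 0 lower (median 0.48): Cxcl10 (2.27 ± 0.22), Ifit1 (1.55 ± 0.30) and Irf1 (1.04 ± 0.15). The falls of the adhesion and NF-kB lists, Icam2 (-0.44) and Ikbkg (-0.32), each lost the call without several of the knockout arrays, control array 3 included, and the interferon count was 5 without control array 3.

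Transcription factors of the early response were divided, beside 4.82% and 7.32% of all genes called higher and lower. Of 13 AP-1, Maf and Atf3 genes 7 rose and 0 fell (median 1.31), including Fosl1 (2.93 ± 0.40), Maff (2.36 ± 0.23), Batf (1.89 ± 0.34) and Mafk (1.31 ± 0.18). Fosl1, a late-responding Fos protein, read 235, 189 and 581 in knockout IP hearts against 12, 33.9 and 33.5 in knockout control hearts. Fos and Jun, named here outside the rule for named genes, did not pass, with log2 changes of 1.08 ± 0.61 and -0.22 ± 0.19. Fos stood at 3364, 3548 and 4172 in knockout IP hearts and at 3265, 388 and 4026 in knockout control hearts, so the groups overlapped and control array 2 was apart from the other control arrays. Among EGR, NR4A and other immediate-early genes 7 of 19 rose and 1 fell. Arc, an activity-regulated gene, read 379.9, 434 and 668 in knockout IP hearts and 14.1, 92.4 and 20.6 in knockout control hearts (3.33 ± 0.54). Egr3 went the other way, with 179, 342 and 234 in knockout IP hearts and 1229.8, 1719 and 1925 in knockout control hearts (-2.64 ± 0.41), although 1 of its 2 probe sets had the opposite sign. Kruppel-like factors were split, with 3 of 13 higher and 3 lower. Klf2, a factor induced by laminar flow in endothelium, read 1063, 977 and 741 in knockout IP hearts and 3044, 1777 and 2395 in knockout control hearts (-1.34 ± 0.16). Klf4 likewise fell (-1.27 ± 0.16), while Klf7 rose (0.54 ± 0.12). Without IP array 3 the count of higher Kruppel-like factors was 1.

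Growth and feedback regulators changed in smaller numbers, beside 4.82% and 7.32% of all genes called higher and lower. Myc rose to 1492, 1569.6 and 1905 in knockout IP hearts, against 195, 170.5 and 145 in knockout control hearts (3.17 ± 0.23). Across Myc, its partners and nucleolar targets 4 of 18 rose and 1 fell, and the list's median was 0.01. Of 14 dual-specificity phosphatases and Sprouty inhibitors of MAP kinase 4 rose and 1 fell: Dusp5 (2.68 ± 0.56), Spred1 (1.28 ± 0.17, 6 of 7 probe sets in this direction) and Spry4 (0.89 ± 0.20) passed whichever knockout array was left out, while the fall of Spred2 (-0.38) was lost under most alternatives. Among glucocorticoid-induced genes and C/EBP factors 6 of 14 rose and 2 fell (median 0.88). Fkbp5, a co-chaperone induced by glucocorticoids, read 3080.2, 2534 and 2684 in knockout IP hearts and 990.1, 647 and 438 in knockout control hearts (2.05 ± 0.32). Cebpd, a transcription factor of the acute phase response, rose by 1.99 ± 0.27, while its other kept probe set gave 0.31. Of 17 p53, growth arrest and apoptosis genes 6 rose and 0 fell: Cdkn1a (1.95 ± 0.43), which arrests the cell cycle, Btg2 (2.14 ± 0.28), Gadd45a (1.45 ± 0.21), Gadd45b (1.15 ± 0.22) and Gadd45g (1.68 ± 0.28) were among them, and the list's median was 0.05. The Myc list had 2 higher genes without IP array 3, and the 2 falls of the glucocorticoid list became 0 or 1 under each array left out.

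Stress response lists held a few strong rises among members that did not pass. Over all genes 4.82% were called higher and 7.32% lower. Of 16 metallothioneins and antioxidant enzymes 4 rose and 0 fell (median 0.10). Mt2, a metal-binding protein, read 29579, 27211 and 33438 in knockout IP hearts and 4103, 4781 and 3102 in knockout control hearts (2.92 ± 0.33), and Mt1 rose by 1.31 ± 0.20. Of 17 heat shock chaperones 4 rose and 0 fell (median 0.25). Dnajb4, a chaperone of the HSP40 family, read 12135, 13147 and 16982 in knockout IP hearts and 7654, 7506 and 7138 in knockout control hearts. Hspa1a, the inducible HSP70, read 4062, 923 and 12425 in knockout IP hearts and 326, 228 and 590.0 in knockout control hearts (3.29 ± 0.95; adjusted p = 0.036); its IP arrays spread widely, the nearly identical copy Hspa1b can share its probes, and the call was lost without IP array 1, IP array 3 or any of the control arrays. The endoplasmic reticulum stress list had 3 of 18 higher and 0 lower, with Ppp1r15a (1.65 ± 0.13), which restores translation after stress, and Atf4 (0.71 ± 0.12). Of 20 hypoxia genes 4 rose and 3 fell. Hif1a itself read 5544, 6172 and 7303 in knockout IP hearts and 3412, 3372 and 4132 in knockout control hearts (0.80 ± 0.14). Pfkfb3, which makes the activator of phosphofructokinase, rose by 2.80 ± 0.24, and among 21 glycolysis genes it and Slc2a1 were the 2 that passed. The chaperone count was 2 without IP array 3, the hypoxia falls were 1 to 2 without one of the arrays, and Slc2a1 (0.44 ± 0.13) lost its call without IP array 3 or any of the control arrays.

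Lists of metabolic, ribosomal, ion handling and cardiac stress genes differed in their counts, beside 4.82% and 7.32% of all genes called higher and lower. None of 23 tricarboxylic acid cycle and oxidative phosphorylation genes passed, with log2 changes between -0.11 and 0.07, and none of 18 cytosolic ribosomal protein genes did. Of 14 calcium handling genes 1 fell, the sodium-calcium exchanger Slc8a1 (-0.79 ± 0.17), but the mean of its 3 probe sets gave 0.02. Of 19 ion channel genes 1 rose and 3 fell. Among 14 cardiac stress genes 8 rose and 0 fell (median 0.73). Ccn2, a matricellular protein induced by stretch, read 18869.6, 17187 and 18924 in knockout IP hearts and 3623, 5479 and 3182 in knockout control hearts (2.20 ± 0.17). Xirp1 (1.84 ± 0.17), a protein of the intercalated disc, Tnfrsf12a (1.73 ± 0.19), the TWEAK receptor, Rcan1 (1.26 ± 0.15), a target and inhibitor of calcineurin, and Ankrd1 (0.64 ± 0.12) also rose. Nppa and Nppb, the natriuretic peptides, were named outside the rule and did not pass, with log2 changes of 0.32 ± 0.20 and 0.83 ± 0.27. Of 26 fatty acid oxidation genes 1 rose and 3 fell. The coactivators went opposite ways: Ppargc1a read 8687, 8306 and 6711 in knockout IP hearts and 4618, 4139 and 3863 in knockout control hearts (0.90 ± 0.12), and Ppargc1b read 1482, 1925 and 1066 in knockout IP hearts and 2733, 2954 and 2585 in knockout control hearts (-0.92 ± 0.17). The 5 kept probe sets of Ppargc1a ran from 0.08 to 1.11 on the log2 scale. In the list of lipolysis and lipid droplets 4 of 19 rose and 1 fell. G0s2, the inhibitor of the lipase Pnpla2, fell to 375, 507 and 329 in knockout IP hearts, against 3186, 1678 and 2652 in knockout control hearts (-2.56 ± 0.26). Without IP array 3 the lipolysis list had 1 higher gene, the ion channel list 1 lower and 0 higher, and the fatty acid oxidation list fewer than 3 lower.

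**Figure D4:**
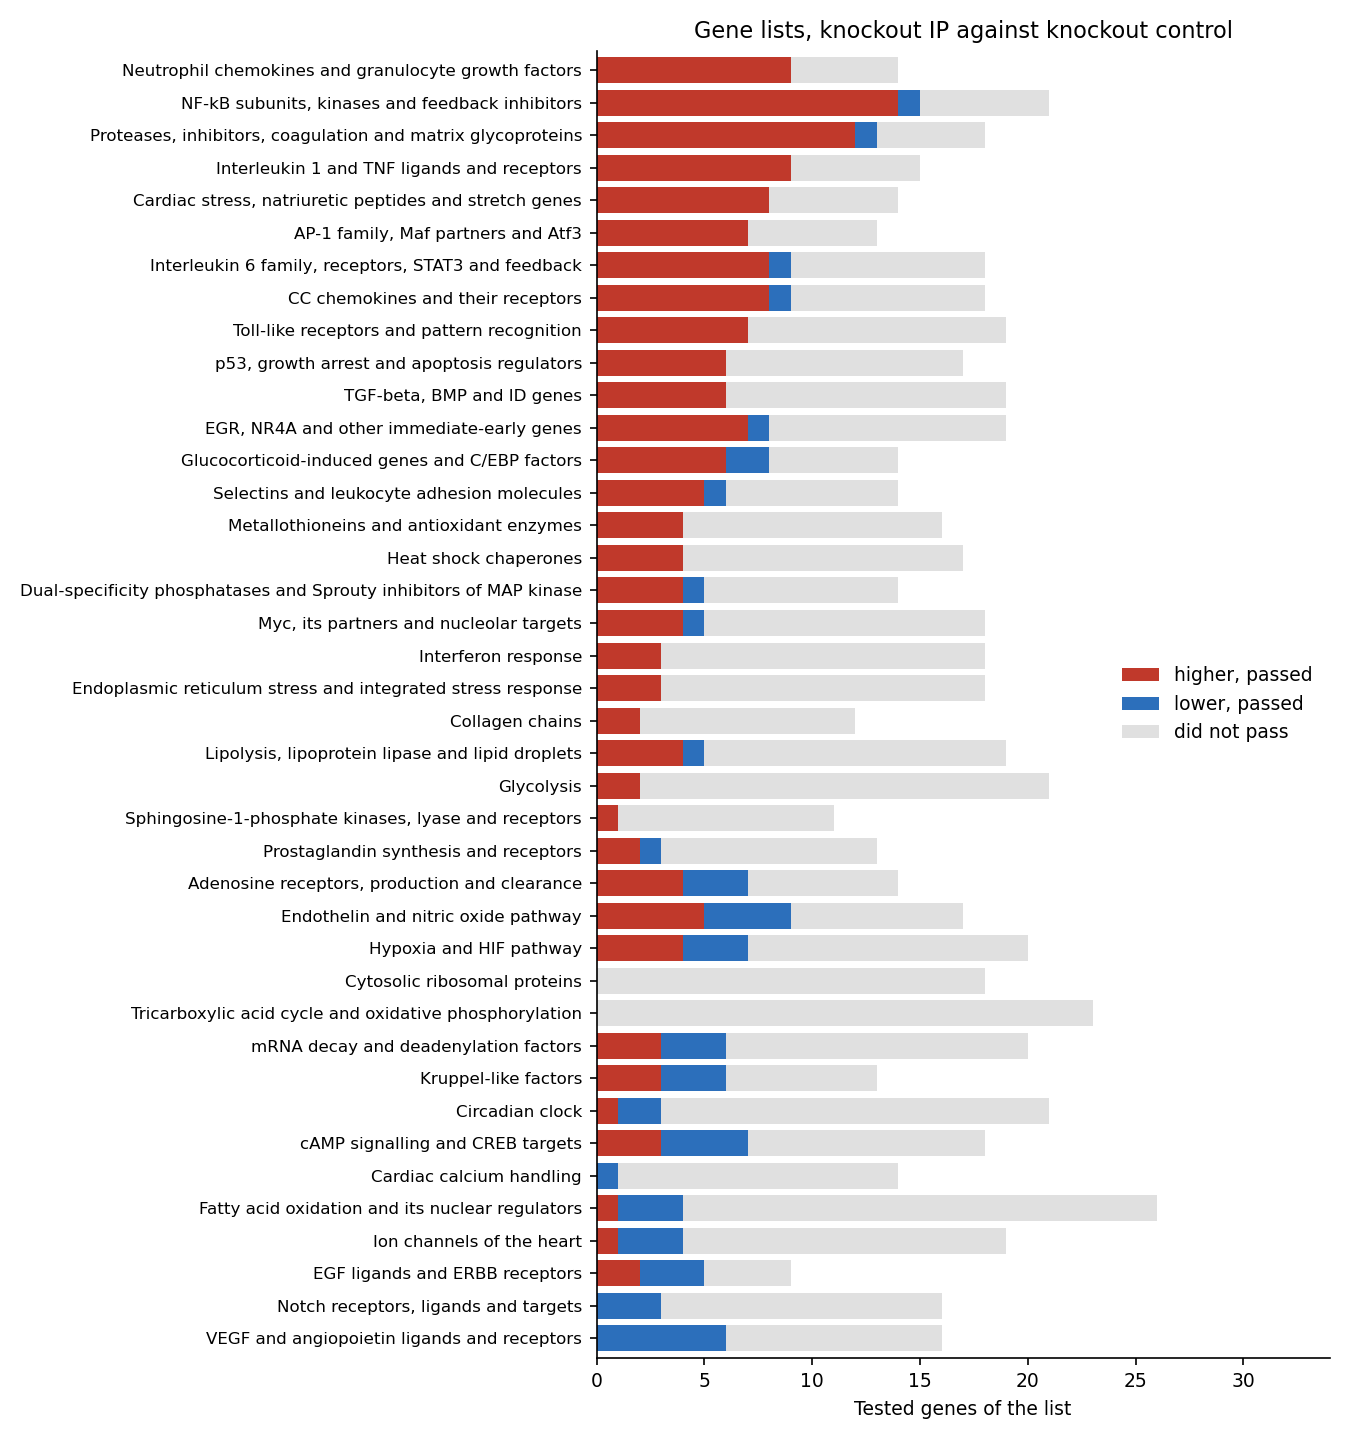
Stacked bars give, for 40 pathway lists, how many tested genes were higher and passed (red), lower and passed (blue) or did not pass (grey) in knockout IP against knockout control hearts, ordered by the difference of the higher and lower shares. Neutrophil chemokines (9 higher of 14) stand at the top. The VEGF and angiopoietin list, which also holds Aplnr (6 lower of 16), stands at the bottom. Over all genes 4.82% were called higher and 7.32% lower.

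Falls were seen in vascular and developmental signalling lists, beside 4.82% and 7.32% of all genes called higher and lower. Of 16 VEGF and angiopoietin ligands and receptors 0 rose and 6 fell (median -0.38). Aplnr, the apelin receptor, is kept in the list but belongs to neither family. It read 2418, 1465 and 1095 in knockout IP hearts and 2955, 4583 and 7585 in knockout control hearts (-1.57 ± 0.33). Vegfc, a lymphatic growth factor, fell by 0.83 on the log2 scale. Kdr, the main VEGF receptor of endothelium, read 1498, 1665 and 1488 in knockout IP hearts and 2601, 1830.3 and 4187 in knockout control hearts (-0.80 ± 0.21). Its arrays did not overlap, and the call was lost without IP array 1, IP array 3 or control array 3. Of 16 Notch genes 0 rose and 3 fell, all of them targets: Hey1 (-1.81 ± 0.20), Nrarp (-1.18 ± 0.16) and Heyl (-1.06 ± 0.19). Hey1 read 129, 133 and 80.1 in knockout IP hearts and 549, 436 and 333 in knockout control hearts. The endothelin and nitric oxide pathway had 5 of 17 higher and 4 lower, with the receptor Ednrb higher (1.58 ± 0.13) and Gucy1a1, a subunit of the nitric oxide receptor, lower (-0.79 ± 0.16). Arg2, which competes for arginine, rose to 130.4, 62.2 and 191 in knockout IP hearts, against 2.51, 26.5 and 9.01 in knockout control hearts. Without IP array 1 the VEGF list had 3 lower genes, and with the beta-actin ratio as a covariate it had 2.

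Matrix and growth factor genes mostly rose where they passed, with the EGF list divided. Over all genes 4.82% were called higher and 7.32% lower. Of 18 proteases, inhibitors, coagulation and matrix genes 12 rose and 1 fell (median 0.74). Adamts1, a protease that cleaves versican, read 5826, 5493 and 6946 in knockout IP hearts and 1074, 962 and 1196 in knockout control hearts (2.48 ± 0.17). Adamts4 (3.59 ± 0.22), a related protease, and Plaur (2.15 ± 0.19), the urokinase receptor, rose as well. Among the collagens 2 of 12 rose, the basement membrane chains Col4a1 (0.62 ± 0.12) and Col4a2 (0.35 ± 0.11). The other kept probe set of Col4a1 gave 0.16, and the call of Col4a2 was lost without 5 of the 6 knockout arrays. Of 19 TGF-beta, BMP and ID genes 6 rose and 0 fell, among them Bmp4 (1.63 ± 0.20), Inhbb (1.65 ± 0.25, with 1 of its 2 probe sets of the opposite sign), Id2 (1.25 ± 0.19) and Smad1 (1.10 ± 0.10). In the list of EGF ligands and ERBB receptors the ligands Hbegf and Ereg rose and 3 of the 9 tested genes fell. Among the falls were the ligand Btc (-0.95 ± 0.29) and Erbb3, a neuregulin receptor (-0.86 ± 0.15). Hbegf read 6972, 7047 and 15482 in knockout IP hearts and 1043, 1189.6 and 1148 in knockout control hearts. Of 13 prostaglandin genes 2 rose, or 1 without any of the IP arrays or without control array 1 or 2, and 1 fell. Ptgs2, the inducible cyclooxygenase, read 1246, 1902 and 1629.8 in knockout IP hearts and 169, 148 and 177 in knockout control hearts (3.13 ± 0.17), while Hpgd, which degrades prostaglandins, fell by 1.06 on the log2 scale. Of 11 sphingosine-1-phosphate genes 1 rose, Sphk1, and of 20 mRNA decay and deadenylation genes 3 rose and 3 fell, with Btg2 (2.14 ± 0.28) as the strongest. The count of 3 falls in the EGF list was 1 without IP array 1, and the decay list had 1 lower gene without IP array 3 and fewer than 2 higher genes without IP array 1, IP array 3 or control array 2.

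Among the genes that fell most, several had low signals in IP hearts. Beside Egr3, G0s2, Cx3cr1 and Hey1, described above, the 15 largest falls were Lefty1 (-2.28), a TGF-beta family antagonist; Chst12 (-1.95), a chondroitin sulfotransferase; Bbs1 (-1.80), a ciliary protein; Ky (-1.77), a muscle protein; Bcl11b (-1.71), a zinc finger repressor; Upk3b (-1.71), a mesothelial marker; Ppp1r3b (-1.68), which targets a phosphatase to glycogen; and the zinc finger genes Zfp41 (-1.82), Zfp354b (-1.71), Zfp799 (-1.70) and Zfp874b (-1.68). Ppp1r3b read 318, 311 and 305 in knockout IP hearts and 1200.2, 812 and 1127 in knockout control hearts. The muscle gene Ky read 151, 115 and 66.7 in knockout IP hearts and 485, 368 and 355 in knockout control hearts. Neither gene's groups overlapped, which the choice of these 15 genes required. The authors' deposited table gave smaller log2 differences for most of the 15. For 9 of them it ran from -0.44 for Bcl11b to -0.91 for Zfp354b. Between these lay Lefty1 (-0.50), Zfp874b (-0.65), Cx3cr1 (-0.68), Bbs1 (-0.71), Upk3b (-0.75), Zfp41 (-0.78) and Chst12 (-0.80). Hey1 stood at -1.44 there. The falls of Egr3, G0s2, Ky, Ppp1r3b and Zfp799 were larger there than here. Zfp41, Zfp354b and Upk3b lost the call without one of several arrays, IP array 1 or IP array 3 among them.

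In the adenosine list the genes that passed were enzymes and transporters. Of 14 tested genes 4 rose and 3 fell (median -0.01), beside 4.82% and 7.32% of all genes called higher and lower. Adora3 was not analysed here. Nt5e, CD73, read 1934, 1467 and 2061 in knockout IP hearts and 709.5, 398 and 396 in knockout control hearts (1.87 ± 0.27). Entpd1, CD39 (0.83 ± 0.20), Ada, adenosine deaminase (1.58 ± 0.40, with 1 of its 2 probe sets of the opposite sign), and Ampd3, an AMP deaminase (0.52 ± 0.13), rose, and the nucleoside transporters Slc29a1 (-0.45), Slc29a2 (-0.95) and Slc29a3 (-0.73) fell. The receptors did not pass: Adora1 had a log2 change of -0.13 ± 0.28, Adora2a of 0.04 ± 0.26 and Adora2b of 0.29 ± 0.33 (adjusted p = 0.635), and each changed sign under 1 or more of the alternatives. Without IP array 3 the count of higher genes was 1, with Nt5e keeping its call, and without IP array 1 the count of lower genes was 1. The calls of Entpd1, Ada, Ampd3 and the 3 transporters were each lost without 1 of several arrays, IP array 1 or IP array 3 among them. Of 18 cAMP and CREB genes 3 rose and 4 fell, and 2 fell without IP array 3 or with the beta-actin covariate. Akap12, a scaffold of protein kinase A, read 7521, 6975 and 9685 in knockout IP hearts and 1662, 1342 and 1857 in knockout control hearts (2.30 ± 0.21), and the phosphodiesterase Pde4b rose by 1.76 ± 0.16, with 3 of its 4 probe sets in this direction. The adenylyl cyclase Adcy6 (-0.60 ± 0.10) and the beta-1 adrenergic receptor Adrb1 (-0.77 ± 0.15) fell.

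Circadian clock genes were called in knockout hearts at a share near that of all genes. In knockout hearts 1 of 21 rose and 2 fell (median 0.06), beside 4.82% and 7.32% of all genes called higher and lower there. In wild-type hearts 8 rose and 1 fell (median 0.54), beside 6.54% and 10% of all genes called higher and lower there. The difference between the genotypes had an unadjusted p below 0.05 for 14 of the 21 genes, against 7.87% of all genes, and 0 of them passed after adjustment (limma). Nfil3, a repressor of clock-controlled genes, read 2465, 1421 and 1576 in knockout IP hearts and 373, 284 and 746 in knockout control hearts (2.00 ± 0.28). Per3 read 112, 106 and 123 in knockout IP hearts and 321, 468 and 182 in knockout control hearts (-1.29 ± 0.40; adjusted p = 0.0469), and Hlf fell by 0.89 on the log2 scale. Per2, a core repressor of the clock, read 107, 148 and 230.5 in knockout IP hearts and 315, 579 and 62.3 in knockout control hearts, which overlap. In wild-type hearts Per2 read 224, 309 and 726 after IP and 87.3 and 35.6 in controls, since wild-type control array 3 has no value for it and was left out of its fit. The log2 change of Per2 was -0.54 ± 0.60 in knockout and 2.41 in wild-type hearts, a difference of -2.95 ± 0.90 (unadjusted p = 0.00566, adjusted p = 0.495). Dbp, an output gene chosen after its values were seen, read 807, 1048 and 2684 in knockout IP hearts, 3479, 6675 and 1976 in knockout control hearts, 2476, 2509.8 and 11673 in wild-type IP hearts and 1004, 2390.0 and 587 in wild-type control hearts. Knockout control array 3 is the lowest of its group for Per2, Per3 and Dbp, and wild-type IP array 3 the highest of its group.

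Leaving out those arrays moved the clock values. Without knockout control array 3 the knockout log2 change of Per2 was -1.38 ± 0.46, 4 clock genes were lower and the difference had an unadjusted p below 0.05 for 14 genes. Without wild-type IP array 3 the wild-type hearts had 5 higher clock genes and the difference had an unadjusted p below 0.05 for 12 genes. The calls of Per3 and Hlf were lost without IP array 1 or control array 1, among others. With the beta-actin ratio as a covariate, an alternative added after seeing the data, Per2 passed in the difference between the genotypes (-5.04 ± 0.60; adjusted p = 0.0201). Under the same covariate the knockout change of Per2 was itself called, at -1.74 ± 0.41 (limma, adjusted p = 0.0206). The beta-actin ratio was 2.64 on knockout control array 3, and its part in the clock values was not tested beyond these alternatives.

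**Figure D5:**
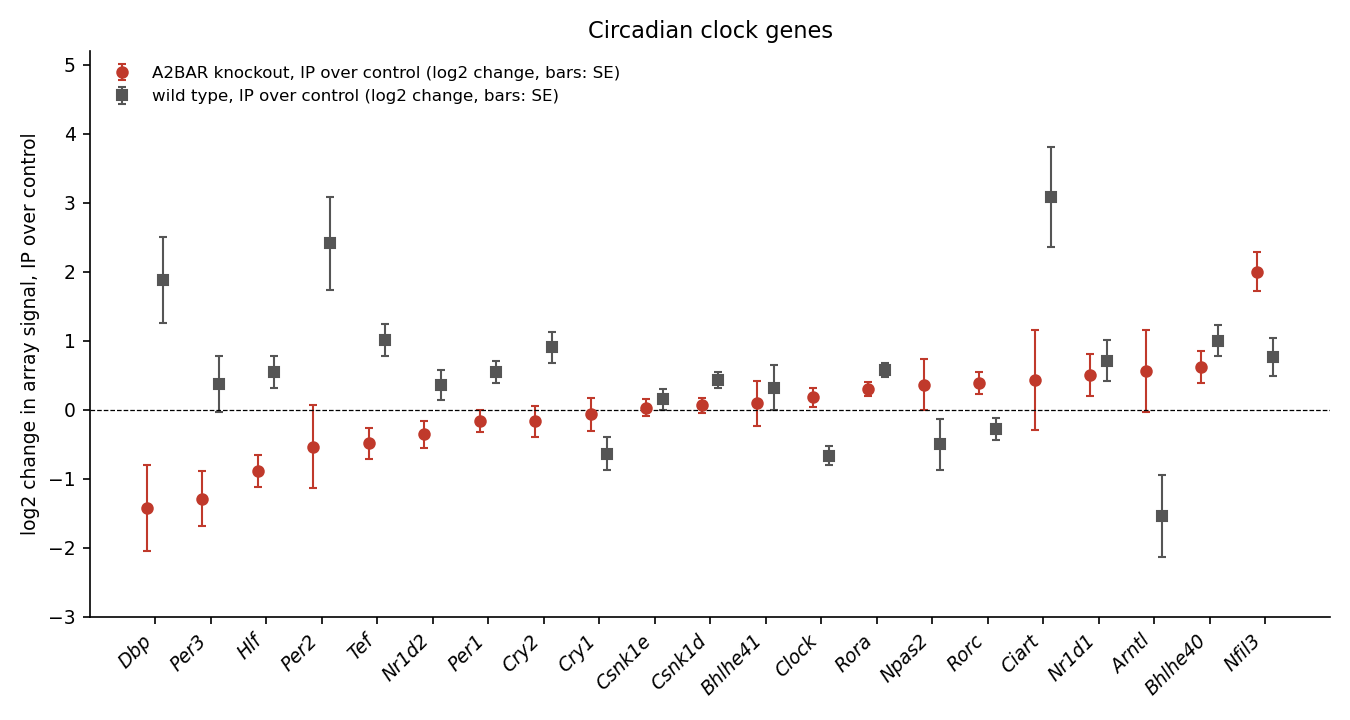
The log2 change in array signal of IP over control (points, with SE as bars) is plotted for 21 circadian clock genes in A2BAR knockout hearts (red circles) and wild-type hearts (grey squares), ordered by the knockout value. Per2 lies at -0.54 in knockout and 2.41 in wild-type hearts, and no gene's difference between the genotypes passed after adjustment over all genes.

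The difference between the genotypes in their response to IP passed for 0 of 14044 genes (limma, smallest adjusted p = 0.325), and 1105 genes (7.87%) had an unadjusted p below 0.05. The SE of this difference had a median of 0.24 on the log2 scale, against 0.17 for the knockout change alone. Of the 677 higher genes of knockout hearts 516 (76.2%) were also called higher in wild-type hearts, where they made up 56.2% of the higher genes. Of the 1028 lower genes 598 (58.2%) were called lower in wild-type hearts, or 42.4% of the lower genes there. Parn, a poly(A) ribonuclease, and Sugp1, a splicing factor, were called in opposite directions. Parn read 369.5, 313 and 353 in knockout IP hearts, 514, 449 and 481 in knockout control hearts, 507, 455 and 529 in wild-type IP hearts and 338, 377 and 340.4 in wild-type control hearts (difference -0.94 ± 0.18, unadjusted p = 8.81e-05). The smallest unadjusted p was that of Tmx1, a thioredoxin-related membrane protein (3.73e-05), and Hmgb1 (0.00016) and Rflnb (0.000193) completed the 5 smallest. The knockout calls of Parn and Sugp1 were lost without IP array 2, IP array 3, control array 1 or control array 3.

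The 15 genes that rose most and the 15 that fell most were picked by their knockout change, which is part of the genotype difference. That pick by itself favours a larger change in knockout than in wild-type hearts, so their count is no test of it. Of these genes, 5 had an unadjusted p below 0.05 for the difference (limma), against 7.87% of all genes, and 0 passed after adjustment. Selp had a log2 change of 4.98 in knockout and 3.73 in wild-type hearts (unadjusted p = 0.00681). Hey1 stood at -1.81 in knockout and -0.77 in wild-type hearts (0.00265), Chst12 at -1.95 in knockout and -0.47 in wild-type hearts (0.00678), and Socs3 at 4.64 in knockout and 3.72 in wild-type hearts (0.024). Cxcl5 was the one with the larger change in wild type, at 4.51 in knockout and 5.56 in wild-type hearts (0.0449). For the cardiomyocyte markers 0 of 16 passed in knockout hearts and 9 rose in wild-type hearts, with medians of -0.03 and 0.20, and 12 of the 16 had an unadjusted p below 0.05 for the difference. The beta-actin ratio was 1.79 to 1.93 in knockout IP hearts and 2.33 to 2.62 in wild-type IP hearts, and with it as a covariate 4 of the 16 had such a p. The median difference was then -0.16, against -0.22 without the covariate, and 8 of the 16 rose in wild-type hearts, with a median of 0.18. Socs3 then passed in the difference between the genotypes (1.70 ± 0.22; adjusted p = 0.0212).

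The authors' deposited table of the same contrast gave, over probe sets, a decision of 1 for 1884 and of -1 for 2736. The authors' deposited list of at least 2-fold changes held 644 probe sets, 518 of them higher and 126 lower. Of the 401 that represent a gene here, 386 were called in the same direction.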

How the data were processed

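Total RNA of mouse heart was measured on 12 Affymetrix arrays, 3 in each of 4 groups. The deposited intensity values are MAS5 signals on a linear scale, per the submitters' processing notes, with no scaling target stated there. The deposited tables of the authors' comparisons hold log2 differences, p-values and a decision score per probe set, per the file headers, and were used for description. Of 45101 probe sets, 64 controls were left out and 40137 had 1 gene symbol; 36287 were matched to RefSeq by Entrez ID, which changed 7947 symbols. A run of 1425 zeros on wild-type control array 3 was set to missing. Probe sets above the 40th percentile were kept, the brightest per gene was used, and log2(signal + 16) of 14044 genes was fitted over all 12 arrays (limma 3.58.1 in R 4.3.3, trended moderation, Benjamini-Hochberg adjustment, threshold 0.05); 852 genes have no value on wild-type control array 3. Changes are IP over control, and the genotype difference is the knockout change minus the wild-type change. The fit was tested on simulated data. Samples with the same number did not deviate together (correlations -0.03, 0.01 and 0.02), so the fit is unpaired. The members and gene lists were chosen with earlier results of these data known. Named genes are the 15 largest rises and falls with no overlap, up to 5 passing members of each list by smallest p, list members that moved against their list, the adenosine receptors, Per1 and Per2, and the 5 smallest p of the genotype difference; others are said to be outside this rule or chosen after their values were seen. Offset, filter, normalization, moderation, probe set summary, replicate block and each array left out were tried as alternatives. A gene that the rule names is not reported here.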

Additional observations from a re-analysis of the deposited data

How the results depend on the processing

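The count of 1705 genes for knockout IP against knockout control ranged from 948 (without IP array 3) to 1704 when 1 array was left out; it was 1215 without IP array 1, 1295 without control array 1, 1218 without control array 2 and 1097 without control array 3. It was 1088 with the beta-actin ratio as a covariate, added after seeing the data, and the share of higher genes was then 51.7%, and 50.8% without control array 3, against 39.7% in the fit reported. With the replicate block the count was 1537; the samples share only a number, and IP arrays 1 and 2 correlated best with a control array of another number. The genotype difference passed for 0 genes whichever array was left out and for 2 with the beta-actin covariate. The log2 change of Adora1 was 0.15 when probe sets were averaged and ran from -0.38 to 0.08 with 1 array left out. Adora2a was -0.04 under that averaging and ran from -0.18 to 0.24. Adora2b ran from -0.07 to 0.52, Per2 from -1.38 to 0.09, Alas2 from -0.00 to 0.50 and Ms4a1 from -0.60 to 0.03. The mean of all probe sets gave 0.01 for Rxra and 0.02 for Slc8a1. The cause of these moves was not tested.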
